A study of Xenopus tropicalis with 3 samples.

Results

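Animal caps of Xenopus tropicalis at the tailbud stage (NF24) were compared with caps at the gastrula stage (NF10.5), across the whole interval over which the prospective epidermis becomes a ciliated, mucus-secreting skin. Abundance was given as FPKM, a fragment count corrected for transcript length and library size, summed here over the transcripts of each gene. Of the 17647 genes measured, the 11677 (66.2%) with at least 1 FPKM at NF24 or at NF10.5 were compared as log2(FPKM + 1). The threshold for calling a gene higher or lower at NF24 was a log2 difference of 1 or more in either direction, or 2-fold after 1 FPKM has been added to both levels.

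Caps were dissected by hand from embryos at NF24, NF16 (neurula) or NF10.5, and total RNA depleted of ribosomal RNA was sequenced from 3 biological replicates per stage, per the labels. No strain, genotype or added agent is named for any of the stages, and the labels do not say whether caps were cultured between dissection and collection. The deposited values are taken as the authors' means over the replicates, with 1 column per stage. The spread between replicates and the depth of each library are therefore unknown, no difference below has a test, and a fold or a call describes the means only.

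The animal cap is the ectodermal roof of the blastula and gastrula. Its outer layer forms goblet cells that secrete mucus. Its inner layer supplies multiciliated cells, which move the mucus, ionocytes, which acidify and exchange ions, small secretory cells, which release serotonin and mucins, and basal cells that rest on the basement membrane. At the gastrula stage the same cells still carry a large store of messenger RNA laid down in the egg and divide quickly.

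Across the interval, 2984 genes (25.6%) were higher at NF24 and 4342 (37.2%) were lower, so 62.7% of the genes compared were called. Large differences were more often towards higher levels at NF24: 937 genes were higher by a log2 of 3 or more and 566 lower, and at a log2 of 5 or more the counts were 235 and 49. The median log2 difference was -0.46. Summed FPKM was 505996 at NF24 and 578836 at NF10.5, and scaling the columns by the median of ratios moved the median to -0.22, a shift of 0.24. The shift was 0.23 when the columns were rescaled to a common sum (TPM), where 12398 genes passed the filter, and 0.20 with quantile normalization. Small differences therefore have no firm zero, and each list below is read against these shares and this median. The rank order of genes was loosely kept (Spearman's rho 0.52 across genes, which are not independent replicates). Fewer cells of a type and less RNA per cell cannot be told apart in such bulk samples.

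**Figure D1:**
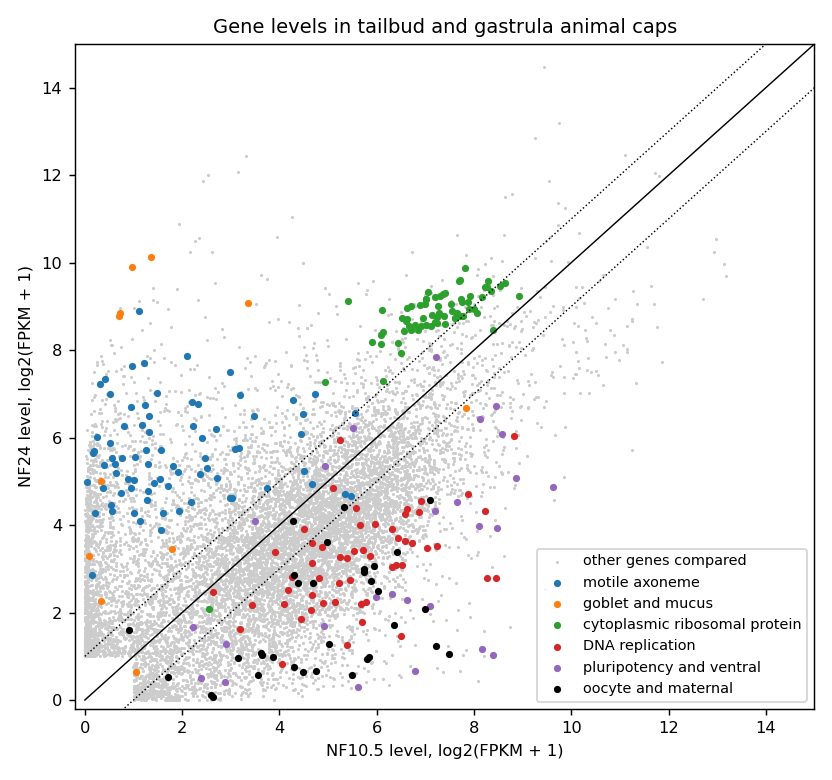
Level of each gene compared, as log2(FPKM + 1), at NF24 (vertical) and at NF10.5 (horizontal). The solid line marks equal levels and the dotted lines a log2 difference of 1 or -1. Coloured points are members of 6 gene lists: 72 of 76 motile axoneme genes lie above the upper dotted line, and 48 of 53 DNA replication genes lie below the lower one.

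Among genes with a symbol, the intelectin genes had the largest differences towards NF24, with itln2 at 954 FPKM at NF24 and 0.967 at NF10.5, a log2 difference of 8.92, and itln1 at 1118 FPKM at NF24 and 1.58 at NF10.5. These encode secreted lectins of goblet cell mucus. The mucus-associated fcgbp was at 460 FPKM at NF24 and 0.643 at NF10.5, and msln, which encodes the cell surface protein mesothelin, was at 1448 FPKM at NF24 and 3.83 at NF10.5. The others of the 12 genes named by size were otog, odf3, krt19, prss29, slc18a1, slc26a4, fucolectin and ca2. They code for an otogelin-like gel protein, a sperm-tail and cilium component, a keratin, a serine protease, a vesicular monoamine transporter, an anion exchanger, a fucose-binding lectin and a carbonic anhydrase.

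Among genes with a symbol, the largest differences towards NF10.5 included histone, cell cycle and pluripotency genes. The histone gene hist1h2am was at 0.35 FPKM at NF24 and 270 at NF10.5, a log2 difference of -7.65. Next came tdgf1.3, which encodes a co-receptor for Nodal ligands, at 1.04 FPKM at NF24 and 335 at NF10.5, and the mitotic cyclin ccnb1, at 1.01 FPKM at NF24 and 296 at NF10.5. The pluripotency factor pou5f3.2 was at 1.24 FPKM at NF24 and 288 at NF10.5. Also among these 12 genes were mkrn3, gs17, birc5.1, hist1h2aa, h1foo, c3ar1, pou5f3.3 and gpnmb. None of the 12 exceeded 5 FPKM at NF24. Some abundant genes carry only a locus identifier in the table and in RefSeq: LOC100493464 was at 5563 FPKM at NF24 and 8.94 at NF10.5 and LOC733521 at 4118 and 4.75, log2 differences of 9.13 and 9.49 that exceed those of the intelectins, while LOC101731852 was at 832 and 9244 and LOC108646289 at 995 and 9004.

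The labelled tissue is prospective epidermis, and its keratins were abundant at NF24, with krt5.7 the most abundant gene of all. Markers of other tissues were present as well. Of 34 measured muscle and mesoderm markers, 23 passed the filter, 20 were higher and 1 was lower. Only 7 of the 34 reached 1 FPKM at NF10.5 and 22 did so at NF24, so the filter partly fixes the count of higher members. Over all 34, the summed level was 595 FPKM at NF24 and 48.4 at NF10.5. The heart-field factor nkx2-5 was at 92.3 FPKM at NF24 and 0.0867 at NF10.5, the sarcomeric actin actc1 at 93.2 and 0.647, and the muscle myosin light chain mylpf at 65.1 and 0.113. At NF24 the muscle genes myh8, tnnt3 and myh4 were at 26.7, 26.2 and 22.8 FPKM, while myl2, myl3 and tnnt1 were listed at 0 and myf5 was at 0.907 FPKM. Of 33 neural markers, 15 were higher and 5 lower among 26 compared, with a summed level of 229 FPKM at NF24 and 472 at NF10.5. Since 12 of the 33 reached 1 FPKM at NF10.5 and 23 did so at NF24, this count of higher members is also partly built in. Most of the NF10.5 sum was sox11, at 209 FPKM, and sox2, at 199, which is also on the pluripotency list. At NF24 these were at 45.3 and 22.1 FPKM. Neural crest markers summed to 626 FPKM at NF24 and 449 at NF10.5 (7 higher and 6 lower of 16). Most of the NF24 sum was msx1, at 232 FPKM, and c3, at 221, which are not particular to the crest, while sox10 was at 3.94. Endoderm markers summed to 239 FPKM at NF24 and 135 at NF10.5, of which apoc1 alone accounted for 201 FPKM at NF24 (1 higher and 5 lower of 10, with a median of -1.11). Blood and endothelium markers summed to 108 FPKM at NF24 and 238 at NF10.5 (8 higher and 2 lower of 12). Of 23 measured, 5 reached 1 FPKM at NF10.5 and 10 did so at NF24, so the count of higher members is again partly built in. Most of the NF10.5 sum was aplnr, at 218 FPKM and 30.1 at NF24. The largest part at NF24 was slc4a1, at 44.8 FPKM, which is also on the ionocyte list. The globin hba3 was at 2.45 FPKM at NF24 and 0.217 at NF10.5, and hbe1 was listed at 0 at both stages. Cement gland and placode markers summed to 1403 FPKM at NF24 and 248 at NF10.5 (9 higher and 2 lower of 14), led by agr2 and dlx3, which epidermis also expresses. The part of these cells in the differences below was not tested.

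The interval is made of 2 steps, NF16 against NF10.5 and NF24 against NF16, which share the NF16 mean and add up to the net difference of each gene. Of the 7326 genes called over the interval, 5419 (74.0%) were called in the first step alone and in the same direction, 552 in both steps and 408 in the second step alone. The first step was the larger for 6467 genes (88.3%). Of all 11677 genes compared, 20.6% were higher and 39.3% lower at the later stage in the first step. In the second step 6.96% were higher and 4.71% lower. A further 90 genes were called over the interval with steps in opposite directions.

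That leaves 857 genes, 11.7% of those called, that were called over the interval while neither step reached a log2 difference of 1. They make up 7.34% of the genes compared, with 484 higher (4.14%) and 373 lower (3.19%). By construction their net difference lies between 1 and 2 in size, and a comparison of neighbouring stages alone would pass over them. Among those with a symbol and at least 10 FPKM at their higher stage were 181 higher and 224 lower genes.

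**Figure D2:**
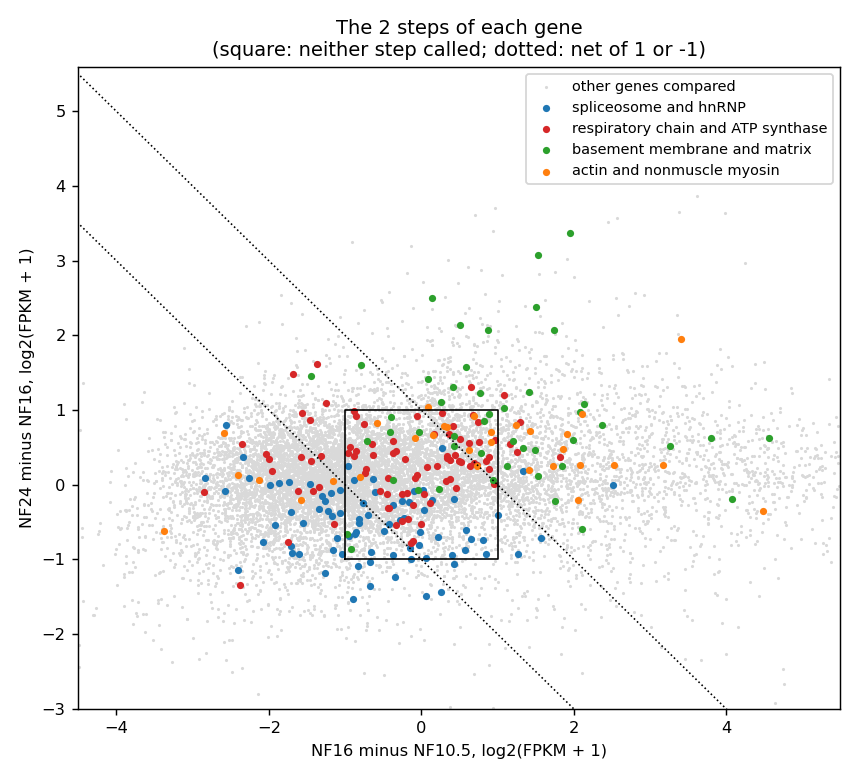
The second step of each gene, NF24 minus NF16 (vertical), against the first, NF16 minus NF10.5 (horizontal), both on the log2(FPKM + 1) scale. Genes inside the square were called in neither step, and those of them beyond a dotted line were called over the whole interval. Spliceosome genes lie mostly at lower left, with 11 of 80 in the lower corner of the square, and 12 of 87 respiratory chain genes lie in its upper corner. The axes leave out 143 genes, none of them coloured.

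The splicing machinery was lower over the interval in many members, with medians of similar size in the 2 steps. Of 80 spliceosome and hnRNP genes, all compared, 47 (58.8%) were lower at NF24 and 2 were higher, with a median log2 difference of -1.29 made of -0.69 in the first step and -0.51 in the second. The difference had a negative sign in both steps for 49 of them. Calls were more often early: 29 of the 80 were lower in the first step and 10 in the second. Their summed level was 9509 FPKM at NF24 and 19639 at NF10.5. With neither step called, 11 members (13.8%) were lower over the interval and none was higher, against 3.19% and 4.14% of all genes compared. With median-of-ratios scaling 41 members were lower, 13 of them with neither step called, and with quantile normalization the median was -0.97.

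The SF3 complex, the part of the U2 particle that holds the branch point of the intron, shows the shape with neither step called most fully. Of its 9 subunit genes 6 were lower, 5 of them with neither step called. The largest subunit, sf3b1, was at 199, 110 and 70.4 FPKM at NF10.5, NF16 and NF24. Levels of sf3a3 were 216, 118 and 74.4 FPKM at NF10.5, NF16 and NF24, and those of sf3a1 were 135, 95.3 and 61.7. The genes sf3a2 and sf3b4 had the same shape, sf3b3 was called in the first step, and sf3b2, at 48.5 FPKM at NF24 and 97.5 at NF10.5, missed the threshold at -0.99. The U5 GTPase eftud2 was at 124, 64.2 and 39.6 FPKM at NF10.5, NF16 and NF24.

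Other splicing components were lower by more or at other times. Among the 11 genes of small nuclear ribonucleoproteins 9 were lower, with snrpa1, a U2 protein, at 28.2 FPKM at NF24 and 338 at NF10.5. Of 12 PRPF genes 8 were lower, all in the first step, led by prpf31 at 35.7 FPKM at NF24 and 262 at NF10.5. The SR protein srsf7, which binds exonic enhancers, was at 163 FPKM at NF24 and 1042 at NF10.5. The hnRNP genes were more divided, with 8 lower, 1 higher and 9 not called of 18. The exception was hnrnpa3, at 180 FPKM at NF24 and 30.5 at NF10.5. The abundant hnrnpk, at 1056, 1099 and 390 FPKM at NF10.5, NF16 and NF24, and hnrnpab, at 1228, 1466 and 539, were lower in the second step only. Tissue-specific splicing regulators, a separate list of 26, were mixed, with 5 higher and 8 lower. The epithelial factor esrp1 was at 334 FPKM at NF24 and 65.4 at NF10.5 and ptbp3 at 90.4 and 4.84, while rbpms2 was at 2.04 and 65.3.

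Genes for the respiratory chain and ATP synthase showed little net difference as a list, but a group of members was higher over the interval by small steps. Of 87 compared, 18 were higher and 13 lower, shares (20.7% and 14.9%) that are both under those of all genes, and the median was 0.05. Their summed level hardly differed, at 7041 FPKM at NF24 and 6867 at NF10.5. However, 12 members (13.8%) were higher over the interval with neither step called, against 4.14% of all genes, and none was lower in this way. ATP synthase, which makes ATP from the proton gradient, held 5 of these 12. The catalytic-head subunit atp5a1 was at 89.2, 120 and 207 FPKM at NF10.5, NF16 and NF24, the stalk subunit atp5h at 36.4, 71.9 and 109, and atp5j at 39.7, 61.7 and 91.5. None of its 15 genes was lower, and atp5b, the catalytic subunit, was at 291 FPKM at NF24 and 436 at NF10.5 and not called. The cytochrome oxidase subunits cox7c, at 115, 193 and 346 FPKM at NF10.5, NF16 and NF24, and cox4i1, at 75.3, 140 and 182, had the same shape. So did ndufa4, which is now counted with cytochrome oxidase, and the complex I genes ndufa5, ndufa11 and ndufb6.

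Members on the lower side were called mostly in the first step. They included sdha, the flavoprotein of succinate dehydrogenase, at 9.34 FPKM at NF24 and 58.2 at NF10.5, and the haem A synthase cox15 at 0.673 and 11.9. The largest difference was in cox5b.2, at 4.04 FPKM at NF24 and 65.5 at NF10.5, whereas its copy cox5b.1 was at 135 and 40.5. The balance depends on scaling: the higher and lower counts were 27 and 11 with median-of-ratios scaling and 29 and 13 with quantile normalization. The neither-step members then numbered 10 higher and 3 lower in the first setting, and 11 higher and 4 lower in the second.

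Actin and its partners were higher over the interval, in part by small steps. Of 31 actin and nonmuscle myosin genes compared, 20 were higher and 6 lower, with a median of 1.49. Their summed level was 21468 FPKM at NF24 and 4471 at NF10.5. With neither step called, 6 members (19.4%) were higher and none was lower, and with median-of-ratios scaling these were 4. They were the actin-sequestering tmsb4x, at 848, 1605 and 2627 FPKM at NF10.5, NF16 and NF24, the filament-binding tpm4, at 85.4, 138 and 263, then tpm1, arpc1b, and the low cobl and cfl2. The actin-disassembly factor wdr1, not on the list, was at 32.7, 59.4 and 110 FPKM at NF10.5, NF16 and NF24. In the first step 13 of the 31 were higher and 6 lower. The cytoplasmic actins actg1 and actb were at 9314 and 3050 FPKM at NF24 and at 863 and 436 at NF10.5. The myosin light chain myl9 was at 201 FPKM at NF24 and 3.92 at NF10.5.

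Basement membrane and matrix genes were higher over both steps. Of 71 measured, 47 passed the filter, and 35 of these were higher and 2 lower, with a median of 1.79 made of 0.88 in the first step and 0.70 in the second. Members that lay below 1 FPKM in gastrula caps enter the comparison only by reaching that level in tailbud caps, so counts of higher members in this and other low lists are partly built in. Here 16 of the 71 members reached 1 FPKM at NF10.5 and 47 did so at NF24. Over all 71, the summed level was 901 FPKM at NF24 and 390 at NF10.5. With a pseudocount of 5 FPKM 19 members were higher, and the median was 0.75.

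Collagens were the late part of this list. Of 21 chains compared 17 were higher and none was lower, and 14 were higher in the second step against 10 in the first. Their summed level over 33 chains was 38.0, 112 and 242 FPKM at NF10.5, NF16 and NF24. The microfibril-forming col6a1 was at 0.19, 3.61 and 46.6 FPKM at NF10.5, NF16 and NF24, and col6a2 at 0.4, 3.06 and 33.2. Of 10 integrin chains compared, 6 were higher in the first step and 2 in the second, and of 7 laminin chains 3 and 1. The laminin receptor chain itga3 was at 1.39, 32.4 and 50.4 FPKM at NF10.5, NF16 and NF24, and the laminin chain lamb1 at 3.81, 80.5 and 70.3. The collagen-binding sparc was at 132 FPKM at NF24 and 2.64 at NF10.5. The only lower members were nid2, which links laminin to collagen IV, at 54.4, 28.2 and 15.1 FPKM at NF10.5, NF16 and NF24, and lama2 at 5.32, 2.21 and 1.03. Neither gene was called in either step. The mesoderm markers given above were also higher in summed level at NF24, and their part in the collagen values was not tested.

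**Figure D3:**
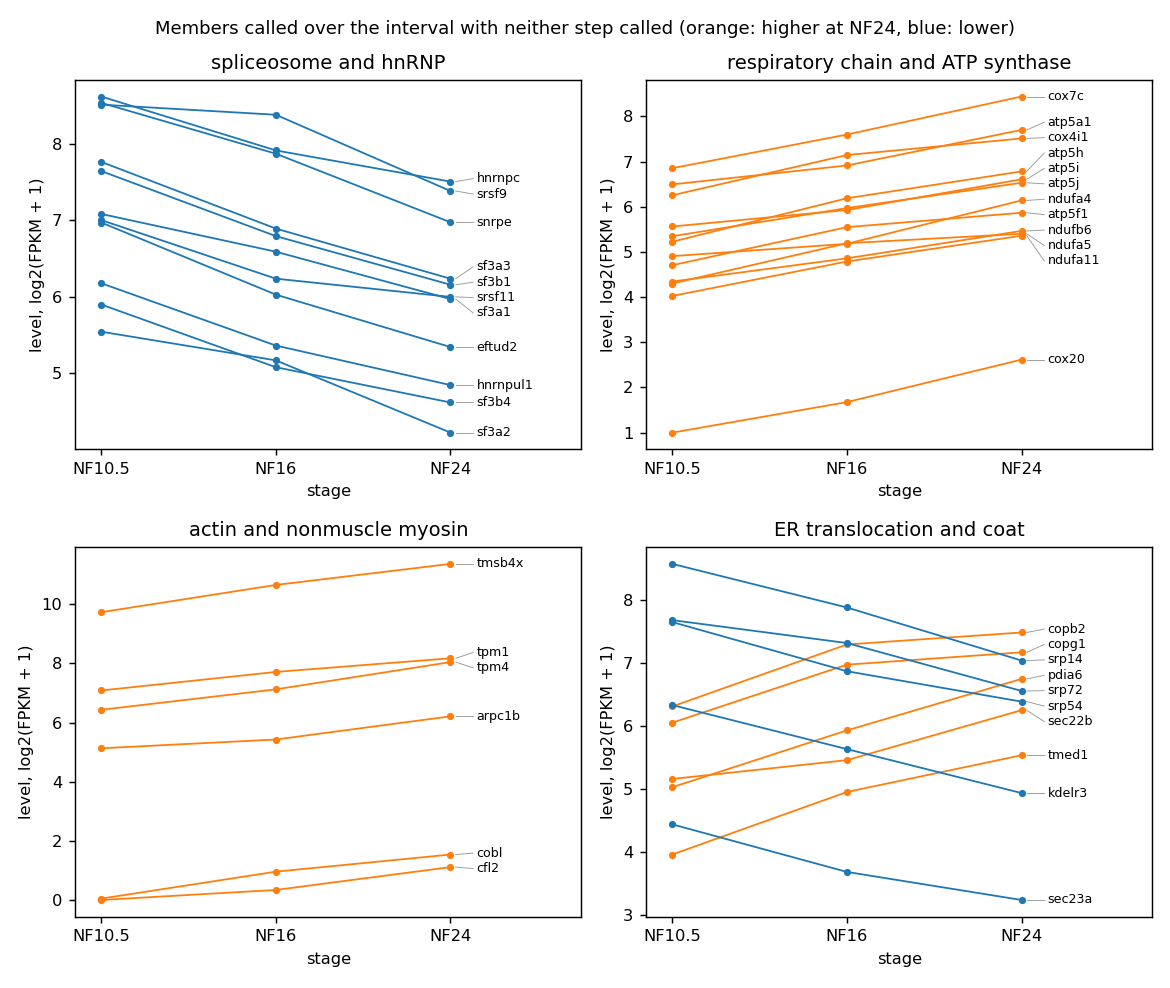
Level, as log2(FPKM + 1), at NF10.5, NF16 and NF24 (horizontal) of each member called over the whole interval with neither step called, in 4 lists. Orange lines are higher at NF24 and blue lines lower. The 11 spliceosome members all descend, the 12 respiratory chain and 6 actin members all ascend, and the endoplasmic reticulum list has 5 of each.

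In the secretory pathway, single genes had either slow shape. In the list of 58 genes for translocation into the endoplasmic reticulum and for transport coats, 17 were higher and 11 lower, 5 of each with neither step called. With median-of-ratios scaling 24 were higher and 8 lower, and the neither-step members were 1 higher and 4 lower. They were also 1 higher and 4 lower with TPM scaling, and 5 higher and 3 lower with quantile normalization. The count of slowly higher members therefore depends on scaling. The translocation channel sec61a1 was at 531 FPKM at NF24 and 127 at NF10.5. The lumenal chaperone hspa5 was at 348 FPKM at NF24 and 83.2 at NF10.5, with its second step the larger. The disulfide isomerase pdia6 was at 31.5, 59.8 and 106 FPKM at NF10.5, NF16 and NF24, and the COPI coat subunits copb2 and copg1 had the same slow shape. Lower members included parts of the signal recognition particle, which brings ribosomes to the membrane: srp14 was at 378, 234 and 130 FPKM at NF10.5, NF16 and NF24 and srp54 at 199, 116 and 82.4. Also lower were srp72, srp9 and the vesicle-coat gene sec24b.

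The vacuolar proton pump, or V-ATPase, had 9 of 18 compared genes higher and 2 lower, and its summed level was 1892 FPKM at NF24 and 819 at NF10.5. Subunits that mammals use mainly in acid-secreting cells led it: atp6v1g3 was at 234 FPKM at NF24 and 1.44 at NF10.5, atp6v1b1 at 108 and 0.337, atp6v1c2 at 93.1 and 0.26, and atp6v0a4 at 66.4 and 0.18. The housekeeping subunits atp6v1d, at 23.9, 45.7 and 80.6 FPKM at NF10.5, NF16 and NF24, and atp6v1h were higher with neither step called.

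Single genes outside these families had the same slow shape. Those with the largest net difference towards NF24 were the stress-response factor ddit3, at 6.94, 13.8 and 28.5 FPKM at NF10.5, NF16 and NF24, and the co-chaperone dnajc4. They were followed by enpp2, which makes lysophosphatidic acid, at 22.8, 43.7 and 85.4 FPKM at NF10.5, NF16 and NF24, and by itfg1, rab27b and the calcium sensor stim1. For rab27b the shape is that of the sum of 2 transcripts that exchanged. The transcript leading at NF24 was at 107 FPKM at NF24 and 0.317 at NF10.5, and the other at 1.09 and 30.4. Towards NF10.5 the largest were hadh, an enzyme of fatty acid oxidation, and the ubiquitin ligase trim36. Levels of hadh were 113, 57.6 and 28.4 FPKM at NF10.5, NF16 and NF24. The polyamine enzyme odc1 was at 1722, 957 and 498 FPKM at NF10.5, NF16 and NF24, and the glycolytic enzyme eno1 at 374, 191 and 102. The histone mRNA-binding protein slbp was at 560, 286 and 146 FPKM at NF10.5, NF16 and NF24. The last of them were mthfd1l, nid2 and lpar1, of which lpar1 encodes a lysophosphatidic acid receptor.

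The medians and shares of all 53 lists place these families among the others. The highest medians were those of the goblet, ionocyte, motile axoneme, and muscle and mesoderm marker lists, and the lowest those of the pluripotency, oocyte, DNA replication and mesendoderm lists. In the goblet, ionocyte and muscle lists only 5, 10 and 7 members reached 1 FPKM at NF10.5, so their medians are partly built in by the filter.

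**Figure D4:**
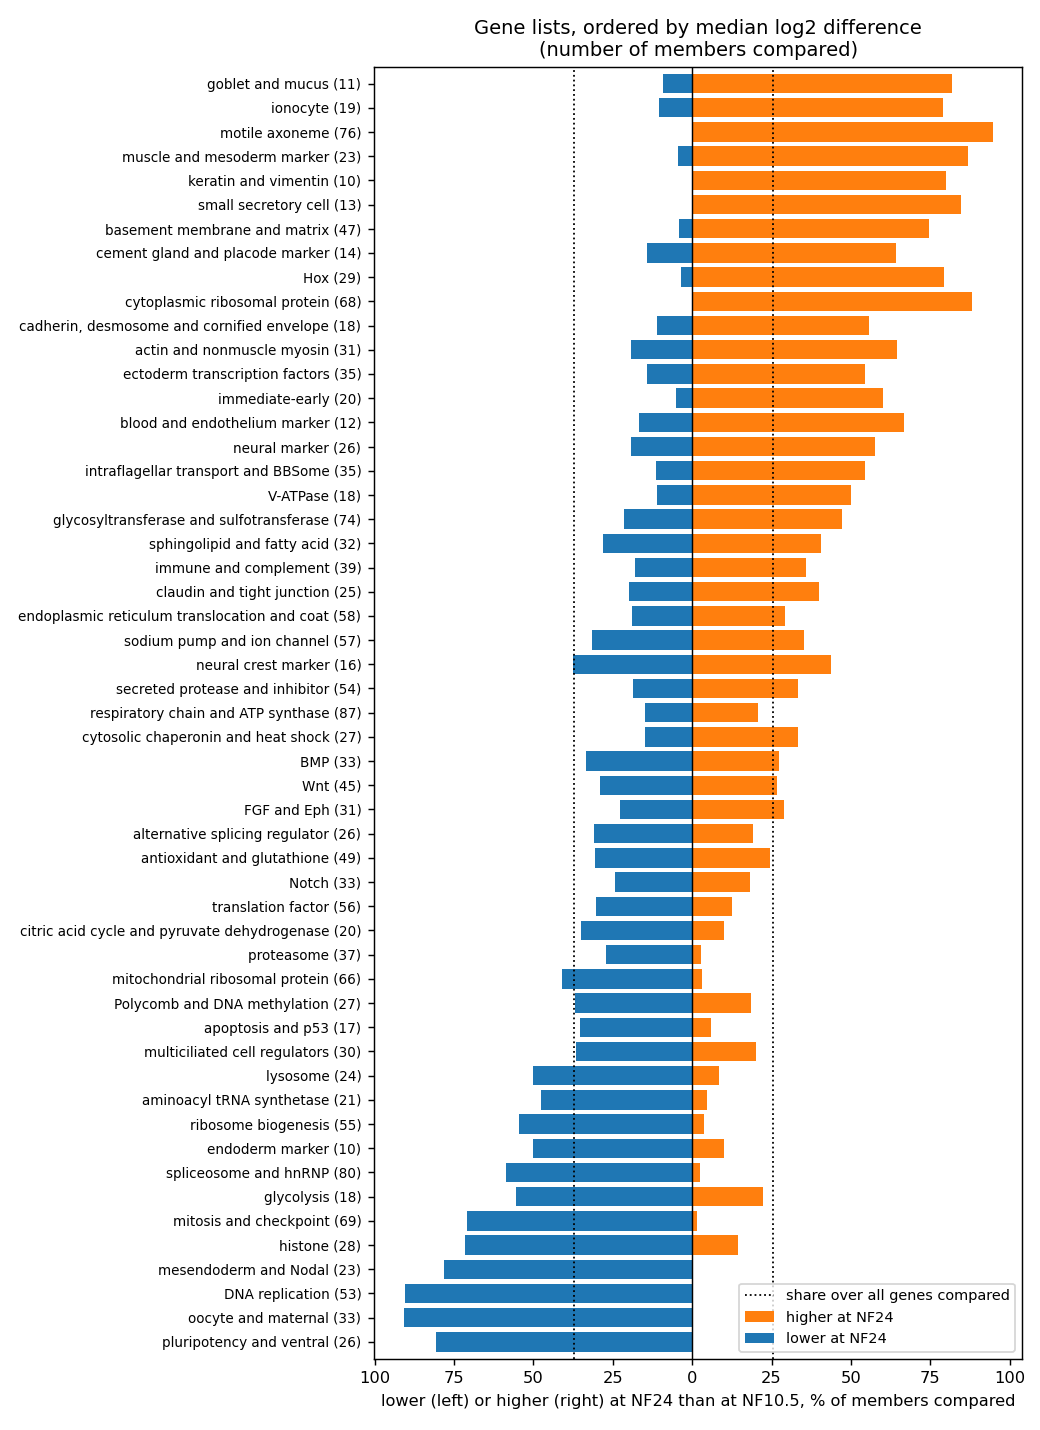
Percent of the compared members of each list that were higher (right, orange) or lower (left, blue) at NF24 than at NF10.5, with lists ordered by their median log2 difference and the number compared in brackets. Dotted lines mark the shares over all genes compared, 25.6% higher and 37.2% lower. Motile axoneme genes were 94.7% higher and oocyte and maternal genes 90.9% lower.

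Multiciliated cells beat with motile cilia built on an axoneme of dynein arms, radial spokes and tektins. Of 77 measured axoneme genes, 76 were compared, 72 were higher and none was lower, with a median of 3.90. Their summed level was 5141 FPKM at NF24 and 427 at NF10.5. The cilium gene odf3 was at 474 FPKM at NF24 and 1.18 at NF10.5, the tektins tekt1 and tekt2 at 149 and 206 at NF24 and at 0.233 and 1.31 at NF10.5, and the central-pair protein spag6 at 198 and 0.97. The 4 not called were mns1, dnaaf5, dnaaf2 and cfap97, of which the assembly factor dnaaf2 was at 25.2 FPKM at NF24 and 39.9 at NF10.5. Nearly all of the net difference lay in the first step, where 71 were called.

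Intraflagellar transport and BBSome genes, which carry cargo along every kind of cilium, differed less. Of 35, 19 were higher and 4 lower, with a median of 1.03, and 12 were higher with a pseudocount of 5 FPKM. The retrograde transport subunit wdr19 was at 17.2 FPKM at NF24 and 1.77 at NF10.5, ift88 at 46.2 and 8.67, and ttc26 at 45.5 and 8.3. All 35 genes were already at or above 1 FPKM at NF10.5, whereas 52 of 77 axoneme genes were. The chaperonin-like bbs10 was on the lower side, at 2.27 FPKM at NF24 and 31.5 at NF10.5.

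Genes that set up the multiciliated cell were often higher at NF16 than at either end stage. Of 30 regulators and centriole genes, 6 were higher and 11 lower over the interval (8 lower with median-of-ratios scaling). The lower share was near the 37.2% of all genes, and the higher share was under their 25.6%. By step, 14 of the 30 were higher in the first and 16 lower in the second. The coactivator mcidas was at 1.23, 50.9 and 2.78 FPKM at NF10.5, NF16 and NF24, a net log2 difference of 0.76 that was not called, although it reached 1.06 with TPM scaling and 1.12 with a pseudocount of 0.1 FPKM. Its relative gmnc, which acts upstream, was at 0.163 FPKM at NF24 and 18.7 at NF10.5, and ccno at 5.45 and 25.8. The cell-cycle factors e2f4, at 13.5 FPKM at NF24 and 83.3 at NF10.5, and e2f5, at 23.9 and 110, which work with mcidas, were lower from the first step. Factors still higher at NF24 were tp73, at 26.8 FPKM and 5.49 at NF10.5, foxn4, at 8.05 and 1.12, and foxj1.2. The main motile-cilium factor foxj1 was at 58.9 FPKM at NF24 and 47.9 at NF10.5 and not called.

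Ionocytes had 15 of 19 compared genes higher and 2 lower, of 24 measured, with a median of 3.91. The summed level was 1537 FPKM at NF24 and 201 at NF10.5. The anion exchanger slc26a4 was at 276 FPKM at NF24 and 0.463 at NF10.5, and the carbonic anhydrase ca2 at 213 and 0.277. Their transcription factor foxi1 was at 131 FPKM at NF24 and 47.3 at NF10.5, while ubp1 was at 1.09, 85.7 and 41.2 FPKM at NF10.5, NF16 and NF24. The water channel aqp3 was lower, at 1.91 FPKM at NF24 and 8.14 at NF10.5. Of these genes, 10 are also on another list, chiefly that of the V-ATPase.

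Small secretory cells had 11 of 13 compared genes higher and none lower, of 17 measured, with a summed level of 583 FPKM at NF24 and 19.5 at NF10.5. Only 5 of the 17 reached 1 FPKM at NF10.5 and 13 did so at NF24, so the count of higher members is partly built in. The monoamine transporters that load serotonin into vesicles were slc18a1, at 276 FPKM at NF24 and 0.45 at NF10.5, and slc18a2, at 82.1 and 0.273. The granule protein chga was at 108 FPKM at NF24 and 2.19 at NF10.5, and the specifying factor foxa1 at 49.5 and 1.12. The serotonin-synthesis gene tph2 reached only 1.71 FPKM at NF24.

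Goblet cell genes had 9 of 11 compared members higher, of 18 measured, and a median of 4.69. Only 5 of the 18 reached 1 FPKM at NF10.5 and 10 did so at NF24, so these figures are partly built in. The mucin genes on the list failed the filter: at NF24 muc2 was at 0.0167 FPKM, muc19 at 0.00667 and muc5ac at 0. The goblet genes tff1 and tff2 were also listed at 0 at NF24. Besides the intelectins and fcgbp, otog was at 436 FPKM at NF24 and 0.623 at NF10.5 and the mucin-folding agr2 at 540 and 9.27. The secretory regulator xbp1 was lower, at 101 FPKM at NF24 and 227 at NF10.5, a call lost with median-of-ratios scaling, where its log2 difference was -0.91. Enzymes that add sugars and sulfate to mucins and proteoglycans exchanged members: of 74 compared, 35 were higher and 16 lower. Higher were b3galt2, at 122 FPKM at NF24 and 2.18 at NF10.5, gcnt4, at 65.8 and 0.893, and chst4, at 64.8 and 1.66. The 2 genes for synthesis of the sulfate donor went opposite ways, papss2 at 20.3 FPKM at NF24 and 0.06 at NF10.5 and papss1 at 13.8 and 123.

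Keratins were among the most abundant transcripts of the tailbud cap. Of 28 measured keratin and vimentin genes 10 passed the filter, and 8 of these were higher and none lower. Together all 28 summed to 33880 FPKM at NF24, 6.70% of the total, and to 1962 at NF10.5, 0.34% of the total. The gene krt5.7 was at 22588 FPKM at NF24 and 690 at NF10.5, krt at 7363 and 611, krt8 at 2889 and 397, and krt19 at 568 and 1.63. Vimentin, vim, was at 25.3 FPKM at NF24 and 0.607 at NF10.5. Reads of near-identical keratin copies may have been divided between them by the authors' quantification.

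Cell junctions were higher in part. Of 18 cadherin, desmosome and cornified envelope genes compared, 10 were higher and 2 lower. The desmosome plaque linkers ppl and evpl were at 430 and 299 FPKM at NF24 and at 4.56 and 4.7 at NF10.5, and the epithelial cadherin cdh1 at 620 and 31.6. The maternal cadherin cdh3 was lower, at 159 FPKM at NF24 and 471 at NF10.5. Of 25 tight junction genes compared, 10 were higher and 5 lower, and their summed level was 2596 FPKM at NF24 and 3121 at NF10.5. The claudin cldn1 was at 398 FPKM at NF24 and 17.3 at NF10.5, and cldn6.1 at 180 and 1363.

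Transcription factors of the ectoderm divided into those of the committed epidermis and those of the early ectoderm. Of 35 compared, 19 were higher and 5 lower, with a median of 1.45. Higher were tbx3, at 124 FPKM at NF24 and 1.81 at NF10.5, dlx4, at 53.5 and 0.85, the epithelial elf3, at 15.8 and 0.0133, and klf6, at 207 and 12.3. The basal-cell factor tp63 was at 7.51, 212 and 106 FPKM at NF10.5, NF16 and NF24. Lower members included klf2, at 2.00 FPKM at NF24 and 52.0 at NF10.5, the early ectoderm factors foxi4.2 and foxi2, and klf17. The surface-ectoderm factors grhl3, at 379 FPKM at NF24 and 325 at NF10.5, and tfap2a, at 187 and 153, were high at both stages and not called.

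Genes of the uncommitted embryo were mostly lower at NF24. Of 26 pluripotency and ventral genes, 21 were lower and none higher, with a median of -3.17, and their summed level was 774 FPKM at NF24 and 4674 at NF10.5. Besides pou5f3.2 and tdgf1.3, the factors were pou5f3.3, at 0.58 FPKM at NF24 and 110 at NF10.5, sox3, at 28.1 and 793, and the BMP-induced repressor ventx1.1, at 14.2 and 354. Of 33 oocyte and maternal genes, 30 were lower and none higher, with a median of -2.87. The linker histone of the egg, h1foo, was at 1.07 FPKM at NF24 and 178 at NF10.5, the maternal RNA regulator zar1l at 1.35 and 149, and cpeb1, which binds stored messengers, at 0.497 and 43.8. In the second step 18 of the 33 members were lower, while 4.71% of all genes were. Of these 18, piwil1, piwil2, tdrd6 and fbxo43 were not called in the first step. Of 23 mesendoderm and Nodal genes, 18 were lower, with sox17b.2 at 0.493 FPKM at NF24 and 30.3 at NF10.5 and mix1 at 0.06 and 21.0. Their levels were low, and with a pseudocount of 5 FPKM 11 were lower.

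Cell division genes were mostly lower at NF24. Of 53 DNA replication genes, 48 (90.6%) were lower and none was higher, with a median of -2.54. The ribonucleotide reductase subunit rrm2.1 was at 5.96 FPKM at NF24 and 348 at NF10.5, the S-phase cyclin ccne1 at 5.89 and 308, the helicase subunit mcm3 at 1.77 and 89.3, and the uracil glycosylase ung at 1.39 and 41.0. Of the 5 not called, dhfr was at 60.9 FPKM at NF24 and 36.7 at NF10.5. Of 69 mitosis and checkpoint genes, 49 were lower and 1 higher. The cyclins ccnb2 and ccna1 were at 33.5 and 12.5 FPKM at NF24 and at 919 and 323 at NF10.5. The exception was the kinase nek2, at 268 FPKM at NF24 and 94.5 at NF10.5, which is also on the list of multiciliated cell genes.

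The list of histones and their partners followed, with 20 of 28 lower, 4 higher and a median of -2.05. Its lower members hira, nasp, npm2 and slbp do not code for histones. Of the 28, 5 were lower with neither step called (17.9%, against 3.19% of all genes). They were the histone genes hist2h3d, hist2h3c and hist1h4c, and hira and slbp. The abundant hist1h2bk was at 531 FPKM at NF24 and 3330 at NF10.5, and the chaperone npm2, which is on this list, at 12.2 and 220. The higher members are variants whose synthesis is not tied to replication: h2afy was at 25.7 FPKM at NF24 and 0.52 at NF10.5, h1f0 at 12 and 2.32, h2afv at 56.2 and 15.2, and h3f3a at 535 and 256. Not all variants of this kind were higher. The related h3f3b was lower, at 391 FPKM at NF24 and 1447 at NF10.5, and h2afz, at 846 and 1609, was not called. Copies of the core histones are near-identical, so the levels of single copies are uncertain. Of 27 Polycomb and DNA methylation genes 10 were lower (37.0%, near the share of all genes) and 5 higher. The lower ones were led by the chromatin remodeller hells, at 16.5 FPKM at NF24 and 346 at NF10.5, uhrf1, at 16.4 and 214, and the maintenance methyltransferase dnmt1, at 6.27 and 88.5. The demethylases tet2, at 27.7 FPKM at NF24 and 0.0467 at NF10.5, and tet3, at 44.6 and 1.58, led the higher ones.

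Genes for being a ribosome were mostly higher, while those for making ribosomes were more often lower than higher. Of 68 cytoplasmic ribosomal protein genes compared, 60 were higher and none lower, with a median of 1.60, and their summed level was 32705 FPKM at NF24 and 11472 at NF10.5. The gene rps2 was at 556 FPKM at NF24 and 41.7 at NF10.5 and rpl26 at 485 and 67.9. Of 55 ribosome biogenesis genes, 30 were lower (54.5%, against 37.2% of all genes) and 2 higher. Their lower count was 22 with median-of-ratios scaling and 20 with quantile normalization. Of all genes compared in these 2 settings, 3666 of 11622 and 3804 of 11706 were lower. The RNA methyltransferase nsun2 was at 16.2 FPKM at NF24 and 132 at NF10.5, and the small-subunit assembly GTPase bms1 at 20 and 123. Mitochondrial ribosomal proteins had 27 of 66 lower (40.9%, near the 37.2% of all genes) and 2 higher. The lower count was 22 with median-of-ratios scaling and 19 with quantile normalization. At the median their first step was -1.41 and their second 0.55. In the first step 39 of them were lower and in the second 10 were higher.

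Translation factors were mixed, with 7 of 56 higher (12.5%) and 17 lower (30.4%), both under the shares of all genes. The elongation factors eef1a1, at 5656 FPKM at NF24 and 2190 at NF10.5, and eef2.1, at 825 and 337, were higher. The oocyte cap-binding eif4e1b, at 5.55 FPKM at NF24 and 58.0 at NF10.5, and its partner eif4enif1, at 26.8 and 209, were lower. Of 21 aminoacyl tRNA synthetase genes 10 were lower, a count of 5 with median-of-ratios scaling and 2 with quantile normalization. Of 37 proteasome genes 10 were lower (27.0%, under the share of all genes) and 1 higher, and with quantile normalization 7 were lower and 7 higher.

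In central metabolism the glycolytic genes were mostly lower. Of 18, 10 were lower and 4 higher, with pgk1 at 17.8 FPKM at NF24 and 140 at NF10.5, gpi at 8.39 and 48.8, and tpi1 at 44.5 and 225. The citric acid cycle list had 7 of 20 lower (35.0%, near the share of all genes) and 2 higher. The lower count was 5 with median-of-ratios scaling and 4 with quantile normalization. The mitochondrial mdh2 was at 3.08 FPKM at NF24 and 65.9 at NF10.5 and the cytosolic idh1 at 138 and 9.16. Of 24 lysosome genes, 12 were lower and 2 higher, led by the protease ctsd, at 4.97 FPKM at NF24 and 90.5 at NF10.5. Of 32 sphingolipid and fatty acid genes, 13 were higher and 9 lower. The lipid-droplet coat genes plin3, at 0.803 FPKM at NF24 and 72.1 at NF10.5, and plin2, at 13.5 and 267, were lower. Higher were the fatty acid elongase elovl2, at 75.9 FPKM at NF24 and 0.167 at NF10.5, and the sphingolipid hydroxylase fa2h, at 96.4 and 3.19. Antioxidant genes had 12 of 49 higher (24.5%) and 15 lower (30.6%), both under the shares of all genes. The glutathione transferase gstp1 was at 175 FPKM at NF24 and 0.35 at NF10.5, and gsta4 at 2.58 and 49.9.

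Of 20 immediate-early genes, 12 were higher and 1 lower, with a median of 1.36. The AP-1 factors jund and jun were at 125 and 112 FPKM at NF24 and at 3.84 and 3.43 at NF10.5. Of 27 chaperonin and heat shock genes, 9 were higher (33.3%) and 4 lower (14.8%). The inducible hsp70 was at 54.6 FPKM at NF24 and 0.25 at NF10.5 and hsp90aa1.1 at 101 and 6.01, while the mitochondrial hspe1 was at 20.9 and 130. These genes also respond to tissue handling, and the part of handling in these values was not tested. Of 17 apoptosis and p53 genes, 6 were lower (35.3%) and 1 higher, with ccng1 at 85.9 FPKM at NF24 and 435 at NF10.5.

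Signalling lists held higher and lower members in similar numbers. In the Wnt, BMP, Notch, and FGF and Eph lists, 18.2% to 29.0% were higher and 22.6% to 33.3% lower. The shares of all genes were 25.6% and 37.2%. Of 45 Wnt genes, 12 were higher and 13 lower, and their summed level was 537 FPKM at NF24 and 1333 at NF10.5. The counts were 16 higher and 12 lower with median-of-ratios scaling, and 13 and 10 with quantile normalization. They were 21 and 13 with TPM scaling, a setting in which 12398 genes and not 11677 passed the filter. The Wnt target sp5l was at 8.73 FPKM at NF24 and 394 at NF10.5, the ligands wnt11 and wnt8a at 4.78 and 2.05 FPKM at NF24 and at 55.6 and 28.2 at NF10.5, and the receptor fzd7 at 25.7 and 214. The receptor fzd6 was at 35.6 FPKM at NF24 and 4.43 at NF10.5, and kremen2, a co-receptor of the inhibitor Dkk, at 12.7 and 0.483.

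Of 33 BMP genes, 9 were higher and 11 lower. Among ligands, bmp7.2 was at 8.97 FPKM at NF24 and 265 at NF10.5 and admp2 at 0.187 and 18.9, whereas bmp4 was at 119 and 55.3. The receptor bmpr2 was at 13.1 FPKM at NF24 and 0.397 at NF10.5, and the target id2 at 291 and 92.1. Of 33 Notch genes, 6 were higher and 8 lower. The ligand dlc was at 7.39 FPKM at NF24 and 31.4 at NF10.5, the target hes7.1 at 1.1 and 30.4, and the receptor notch2 at 36.8 and 1.06. The FGF and Eph list had 9 of 31 higher and 7 lower, a count of 3 lower with median-of-ratios scaling. The receptor fgfr4 was at 12.1 FPKM at NF24 and 123 at NF10.5, and the feedback inhibitors spry4 and spred1 were at 37.4 and 27.9 FPKM at NF24 and at 6.54 and 2.53 at NF10.5.

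Hox genes, which mark position along the body axis, had 23 of 29 compared members higher and 1 lower, of 34 measured, but at low level. Only 4 reached 1 FPKM at NF10.5 and all 29 did so at NF24, and the summed level was 20.8, 194 and 129 FPKM at NF10.5, NF16 and NF24. Among the higher members, hoxc10 was at 9.79 FPKM at NF24 and 0.33 at NF10.5, and hoxa3 at 7.4 and 0.237. The lower member was hoxd1, at 3.7 FPKM at NF24 and 10.2 at NF10.5. With a pseudocount of 5 FPKM 6 Hox genes were higher and the median was 0.59.

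Secreted proteases, ion channels and immune genes were mixed. Of 54 protease and inhibitor genes compared, 18 were higher and 10 lower. They included the serine protease prss29, at 547 FPKM at NF24 and 1.78 at NF10.5, whose second step from 43.0 FPKM at NF16 was one of the few large late ones, and the matrix metalloproteases mmp3 and mmp1. Of 57 pump and channel genes, 20 were higher and 18 lower, with the potassium channel kcnj2 at 44.1 FPKM at NF24 and 0.0867 at NF10.5 and the chloride channel protein clic5 at 3.32 and 59.0. Of 39 immune and complement genes, 14 were higher and 7 lower (4 with median-of-ratios scaling). The complement components c3, at 221 FPKM at NF24 and 47.1 at NF10.5, and c9, at 251 and 65.8, were the abundant ones among the higher. The largest lower member, c1d, at 15.6 FPKM at NF24 and 155 at NF10.5, is a nuclear RNA-processing factor that the pattern of gene symbols used for this list took in. In the same way the pump and channel counts include the scaffold protein genes slc9a3r2, higher, and slc9a3r1, lower. The protease and inhibitor list includes the mRNA cleavage factor genes cstf2 and cstf3, neither of them called.

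Comparing the end stages alone hides genes whose steps ran in opposite directions. Of the 4351 genes not called, 176 were called in opposite directions in the steps: 57 were highest at NF16 and 119 lowest. Besides mcidas, the centriole gene poc1a was at 3.42, 38.5 and 2.97 FPKM at NF10.5, NF16 and NF24, the zinc finger gene znf329 at 1.86, 30.2 and 2.02, and ugdh.2, which makes a sugar precursor of matrix glycans, at 48.5, 422 and 48.2. In the opposite shape, the inflammatory cytokine il1b was at 4.44, 0.243 and 4.65 FPKM at NF10.5, NF16 and NF24, the matrix protease adamts1 at 28.8, 5.07 and 25.5, the chloride channel ano1 at 19.8, 4.81 and 32.6, and the nuclease endog at 7.97, 1.52 and 10.2.

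Several pairs of related genes were called in opposite directions over the interval. These pairs were picked out after their values were seen and describe no more than themselves. Hexokinase hk1, the entry enzyme of glycolysis, was at 126 FPKM at NF24 and 1.84 at NF10.5, against 11.8 and 65.9 for hk2. The hk2 transcript that led at NF24 was at 10.53 FPKM at NF24 and 10.85 at NF10.5, while the one that led at NF10.5 was at 0.173 and 45.3. Phosphofructokinase pfkp was at 112 FPKM at NF24 and 3.41 at NF10.5, against 4.73 and 13.7 for pfkm. Profilin pfn1, which supplies actin monomers, was at 561 FPKM at NF24 and 184 at NF10.5, against 7.67 and 136 for pfn2. In the Arp2/3 complex, which branches actin filaments, arpc1b was at 73.1 FPKM at NF24 and 34.1 at NF10.5, against 30.9 and 132 for arpc1a. Of the proteins that tie actin to the membrane, ezr was at 74.5 FPKM at NF24 and 8.03 at NF10.5, while msn was at 15.1 and 33.9 and rdx at 7.09 and 26.9. The V-ATPase subunit genes atp6v1c2 and atp6v1c1 were at 93.1 and 41.7 FPKM at NF24 and at 0.26 and 110 at NF10.5.

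Within single genes, the transcript with the largest share of FPKM also differed between the stages. Of 2368 genes with more than 1 transcript and at least 10 FPKM at both stages, 157 (6.63%) had another leading transcript at NF24, which had gained at least 30 percentage points of share while the NF10.5 leader had lost as many. Of these, 77 were not called in level, 30 were higher and 50 lower. In 131 of them the NF24 leader was already ahead of the NF10.5 leader at NF16. The median gain was 47.2 points, and 51 genes passed at 50 points.

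The vesicle-trafficking gene rab27b showed the fullest exchange: 1 of its 2 transcripts held 99.0% of its FPKM at NF24 and 1.03% at NF10.5. In efcab7, which in mammals acts in Hedgehog signalling at the cilium, the NF24 leader held 95.2% at NF24 and was listed at 0 at NF10.5. In ckap5, a microtubule polymerase, the NF24 leader held 87.5% at NF24 and 0.896% at NF10.5, and in perp, a desmosome protein of stratified epithelia, it held 96.5% and 11.4%. The RNA-binding larp6 and the dehydrogenase gene rdh7.2 complete the 6 largest, with 91.9% and 90.9% held by the NF24 leader at NF24, and their summed levels were not called. Shares depend on how the authors' quantification assigned reads to overlapping transcripts, which FPKM does not show.

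**Figure D5:**
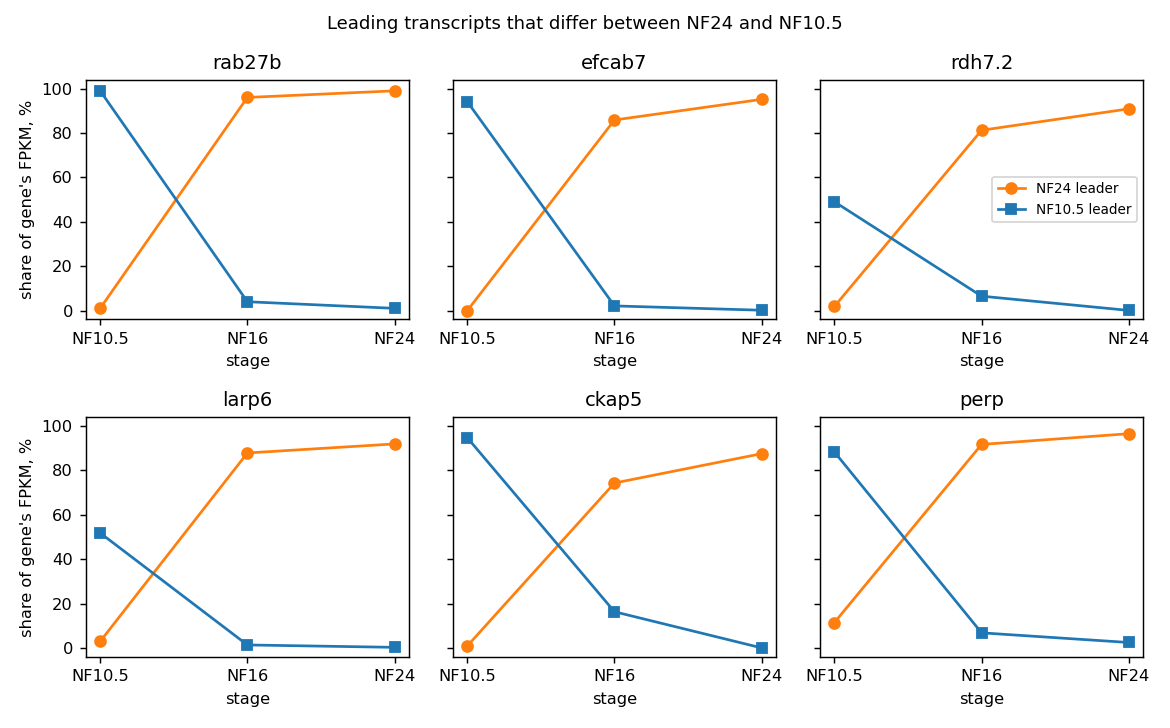
Share of the gene's FPKM, in percent (vertical), held by the transcript leading at NF24 (orange circles) and by the one leading at NF10.5 (blue squares) at NF10.5, NF16 and NF24 (horizontal), for the 6 genes with the largest gain. In all 6 the NF24 leader was ahead at NF16.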

How the data were processed

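The deposited table holds the authors' FPKM per RefSeq transcript with 1 column per stage, in 35047 rows for 35028 transcripts, per the file headers. Of these, 19 rows repeat a transcript and were kept. The submitters' processing notes name STAR 2.4.2a and RSEM 1.3.0, without settings, and the genome build is not given in the sources used here. All values above 0 lie within 0.01 of a step on a grid of 0.01 over 3, as means of 3 rounded values would, and are taken as such means. Without replicate values no test was possible, and the planned rule of size was used.

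FPKM was summed per gene with pandas 2.3.3, and log2(FPKM + 1) was compared without further scaling. List members under locus identifiers were named through RefSeq (assembly UCB_Xtro_10.0), where 94.0% of genes were found. The 53 gene lists and the genes described were chosen with earlier results of these data known, and complexes within lists were split by symbol after values were seen. Named genes, all with a symbol and not only a locus identifier, were the 12 largest differences each way at 10 FPKM or more, up to 4 called members per list and 1 the other way, the 8 largest each way with neither step called, 4 of each returning shape and the 6 largest transcript exchanges. Genes named beyond this rule were chosen after their values were seen. Alternatives were pseudocounts of 0.1 and 5 FPKM, a filter at 5 FPKM or none, 3 scalings, the highest transcript only, repeated rows dropped, and other limits for transcript exchanges. Steps were checked on simulated data. Promoter sequences were not used here.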

Additional observations from a re-analysis of the deposited data

How the results depend on the processing

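With a pseudocount of 5 FPKM, 1974 genes were higher at NF24. Genes higher over the interval with neither step called numbered 255 with a pseudocount of 0.1 FPKM and 234 with a filter at 5 FPKM, and genes lower in this way numbered 561 with quantile normalization. Leading transcripts differed in 51 genes at 50 percentage points. The cause of these shifts was not tested. The other whole-table counts stayed within 1.5 times their reported values under the 9 alternatives, and lower genes were 59.3% of calls as reported and 52.7% with median-of-ratios scaling. Of 270 named genes called, 252 were called the same way under every alternative that compares them, and most of the losses came with the pseudocount of 5 FPKM. In lists of low genes the pseudocount of 5 FPKM also lowered counts of higher members, to 6 of the small secretory cell genes, 5 of the keratin genes, 6 of the tight junction genes, 6 of the neural markers and 12 of the ion channel genes. No direction of a called value was reversed under these alternatives. No paired analysis was possible because the table holds means with no replicate columns, and leaving out a replicate could not be run for the same reason. Depth is unknown, so the precision of low FPKM values cannot be given.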
